A study of Mus musculus with 4 samples.

Results

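The 8 genes described here are Neurog1, Neurog2, Neurod1, Neurod2, Neurod6, Nhlh1, Nhlh2 and Bhlhe22, which encode neural basic helix-loop-helix (bHLH) transcription factors. They were chosen by name, as a cascade read from progenitor to neuron, and all 8 were present among the 32286 genes of the count matrices. Single-cell RNA-seq libraries had been made from tdTomato-positive cells sorted from mouse cerebella at E15.5. Control embryos were Ptf1aCre/+; R26LSL-tdT/+. En1/2 CKO embryos carried the same Cre and reporter alleles together with En1lox/lox and En2lox/lox, so that both Engrailed homeobox genes could be recombined in Ptf1a-lineage cells. Each genotype had 2 libraries, each from pooled embryos of unstated number. Where 2 libraries are the replicates, a p-value measures only the spread between such pools. Cre was active only where and when the Ptf1a allele drove it, and all embryos of both groups were Ptf1aCre/+.

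Proneural bHLH proteins bind E-boxes as dimers with ubiquitous E proteins, and start neurogenesis by switching on Notch ligands, cell cycle exit genes and further bHLH genes. Neurogenins act first, in progenitors, and the NeuroD, Nhlh (NSCL) and Bhlhe22 (Bhlhb5) factors act later, in newly formed neurons. Hes and Id proteins oppose them. In the cerebellum the ventricular zone that expresses Ptf1a produces Purkinje cells first and Pax2-positive interneurons later, and granule cell precursors arise separately from the Atoh1-positive rhombic lip.

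After filtering, the libraries held 9487 and 1134 cells in controls 1 and 2, and 4893 and 7300 cells in En1/2 CKO 1 and 2, with 2867297 to 15993639 UMIs (unique molecular identifiers, one per captured transcript). Control 2 stood apart: 24.6% of its barcodes passed, against 59.7% to 86.3% in the others, and it held only 32 Purkinje-like cells. Control 1 stood apart by its nuclear transcript Malat1, at 84964 CPM (UMIs of a gene per 1000000 UMIs) against 31391 to 33327. Between 10 and 32 cell barcodes were shared by any 2 libraries, at most 0.346% of either. En1 was at 110 and 78.5 CPM in the controls and 69.7 and 63.0 in the mutants, and En2 at 103 and 49.2 against 30.4 and 15.3. In the unnamed Angpt1/Lhx1-led cluster and the Scx-led interneuron-like cluster, En1 went the other way, at 99.9 and 80.6 against 128 and 112 CPM and at 63.1 and 40.8 against 82.6 and 64.2 CPM, while En2 was lower in both mutants in each. Which part of either gene is deleted was not given in the sources used here, so these 3' counts check the labels only weakly. Cells were clustered with the 8 genes held out of the clustering genes, and clusters were named from marker lists, each written with "-like" because the names are rebuilt here. A level is a gene's share of all UMIs of a cluster in 1 library, in CPM, and since 3' counts do not set genes on one scale, levels are compared for 1 gene at a time. Because clusters come from the same cells, differences between clusters are a description without a test.

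Promoters of 7 of the 8 genes, from 250 bases before to 50 after the RefSeq start (build GRCm38.p6), were searched for the E-box CANNTG, which reads the same on both strands. Bhlhe22 had no entry. The 4 below span the range of matches, from none in Neurog2 to 4 in Nhlh2, on the coding strand, with every E-box in capitals. They lie at chr3:127632886-127633185 (plus strand, Neurog2), chr13:56252131-56252430 (minus strand, Neurog1), chr11:98329596-98329895 (minus strand, Neurod2) and chr3:102009895-102010194 (plus strand, Nhlh2).
Neurog2: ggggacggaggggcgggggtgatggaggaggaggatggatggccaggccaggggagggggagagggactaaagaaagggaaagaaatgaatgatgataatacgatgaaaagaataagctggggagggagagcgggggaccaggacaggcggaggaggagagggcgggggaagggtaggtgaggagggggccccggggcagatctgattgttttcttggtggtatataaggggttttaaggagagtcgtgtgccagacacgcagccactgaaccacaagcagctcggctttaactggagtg
Neurog1: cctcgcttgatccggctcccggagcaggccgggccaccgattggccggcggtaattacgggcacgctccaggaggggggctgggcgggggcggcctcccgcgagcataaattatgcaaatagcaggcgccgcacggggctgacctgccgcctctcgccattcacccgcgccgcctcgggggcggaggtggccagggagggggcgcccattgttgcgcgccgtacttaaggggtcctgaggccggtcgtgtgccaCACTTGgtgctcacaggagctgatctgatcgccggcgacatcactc
Neurod2: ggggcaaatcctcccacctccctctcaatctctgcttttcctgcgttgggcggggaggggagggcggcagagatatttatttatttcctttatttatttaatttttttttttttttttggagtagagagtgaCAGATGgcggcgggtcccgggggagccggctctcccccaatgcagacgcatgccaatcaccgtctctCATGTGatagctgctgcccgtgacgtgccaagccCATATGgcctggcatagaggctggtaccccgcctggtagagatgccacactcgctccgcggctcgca
Nhlh2: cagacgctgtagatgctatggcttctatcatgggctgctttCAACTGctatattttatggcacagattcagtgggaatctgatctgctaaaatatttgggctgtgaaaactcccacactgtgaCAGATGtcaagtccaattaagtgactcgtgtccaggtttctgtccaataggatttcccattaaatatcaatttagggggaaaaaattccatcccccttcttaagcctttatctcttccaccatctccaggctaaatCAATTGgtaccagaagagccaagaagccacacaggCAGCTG
Neurod1 held 1 match, and Neurod6 and Nhlh1 held 2 each. CANNTG was present in 72.3% of 32851 promoters of that length. The form CAGATG (or CATCTG on the other strand), which NeuroD-type dimers are known to prefer, was present in Neurod2, Nhlh1 and Nhlh2 and in 17.2% of all promoters. CAGCTG was present in Nhlh2 and in 16.3% of all promoters. A match is a description of letters and not a bound site. By the GRCm38 gene annotation all 8 genes are protein coding. Neurog1 lies on chromosome 13, Neurod1 on chromosome 2, Neurod2 on chromosome 11, Neurod6 on chromosome 6 and Nhlh1 on chromosome 1, while Neurog2, Nhlh2 and Bhlhe22 (chr3:18054174-18057517) lie on chromosome 3.

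Neurog2, the neurogenin of early progenitors, was highest in the Ptf1a intermediate progenitor-like cluster, where all 10 markers of that list were raised. There it stood at 495 and 721 CPM in controls 1 and 2 and at 807 and 639 CPM in En1/2 CKO 1 and 2, from 362, 130, 1177 and 573 UMIs. All 4 values were above every value of the 12 other clusters with 20 or more cells per library, with a mean of 666 ± 133 CPM (SD, n = 4 libraries, as for every mean ± SD that follows). The next 2 clusters were an unnamed one led by Angpt1, Ccnd2, Prdm13 and Lhx1 (403 ± 63.4 CPM) and a dividing one led by Spc25 and Rrm2 (282 ± 66.3 CPM), whose libraries overlapped each other. In radial progenitor-like cells the mean was 29.0 ± 18.7 CPM. Neurog2 was thus low in radial progenitor-like cells and highest in intermediate progenitor-like cells.

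Neurog1, its paralogue, had another maximum. In the unnamed Angpt1/Lhx1-led cluster it stood at 227 and 185 CPM in controls 1 and 2 and at 344 and 297 CPM in the mutants. The mean there was 263 ± 71.0 CPM, against 82.2 ± 23.7 CPM in the Ptf1a intermediate progenitor-like cluster, and no library of one overlapped the other. Of the cells with at least 2 Neurog1 UMIs, 55.2% ± 1.93 lay in the Angpt1/Lhx1-led cluster (SD over 4 libraries). The Scx-led interneuron-like cluster held 18.9% ± 6.06 of them and the intermediate progenitor-like one 15.8% ± 4.62. For Neurog2 those shares were, in the same order, 29.7% ± 3.46, 9.60% ± 5.19 and 33.6% ± 7.87. Summed over its cells, the Angpt1/Lhx1-led cluster had Pax2 at 383 to 479 CPM, Lhx1 at 259 to 374 CPM and Ebf1 at 1842 to 4629 CPM. Whether single cells held them together was not measured. With the 8 genes allowed in the clustering, its leading genes were divided between unnamed clusters. These were led by Igsf8 and Ebf1 (2121 cells) and by Ccnd2 and Klhl35 (1016 cells). In a finer clustering, a cluster led by Ccnd2, Prdm13 and Lhx1 (718 cells) was named interneuron-like. One led by Angpt1 and Lrp1b (1331 cells) stayed unnamed.

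Nhlh1 and Nhlh2, bHLH factors of newborn neurons, spread over the same clusters in different proportions. Nhlh1 was at 134 and 313 CPM in the controls and 258 and 189 CPM in the mutants in the Angpt1/Lhx1-led cluster. Its mean there, 224 ± 78.2 CPM, overlapped that in the Scx-led interneuron-like cluster, 152 ± 50.3 CPM. Taken library by library, each was lower in the Scx-led cluster, at 89.3 and 145 CPM in the controls and 211 and 163 CPM in the mutants. Nhlh2 was highest in the Scx-led cluster, at 586 and 1582 CPM in the controls and 1106 and 913 CPM in the mutants. Its mean of 1047 ± 417 CPM there overlapped 829 ± 243 CPM in the Angpt1/Lhx1-led cluster. Each library was lower in the latter, at 496 and 1029 CPM in the controls and 988 and 800 CPM in the mutants. For both genes the 2 controls marked the lowest and the highest value of the 4 libraries in at least 1 of these clusters.

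Neurod1, Neurod2 and Neurod6, the later NeuroD factors, and Bhlhe22, a factor of maturing neurons, were highest in interneuron-like clusters. Neurod2 was at 757 and 671 CPM in the controls and 1006 and 957 CPM in the mutants in the Scx-led cluster, with 848 ± 160 CPM there, 827 ± 120 CPM in the Igfbp5-led and 750 ± 92.4 CPM in the Robo3-led interneuron-like cluster. Neurod1 was at 439 and 1027 CPM in the controls and 834 and 709 CPM in the mutants in the Scx-led cluster, and its mean of 752 ± 246 CPM overlapped 731 ± 286 CPM in the Igfbp5-led one. Libraries thus overlapped between neighbouring interneuron-like clusters for both genes. Neurod6 was at 181 and 309 CPM in the controls and 383 and 285 CPM in the mutants in the Igfbp5-led cluster, with a mean of 290 ± 83.7 CPM. Bhlhe22 was at 191 and 509 CPM in the controls and 396 and 267 CPM in the mutants in that cluster, with a mean of 341 ± 141 CPM. Both overlapped their Scx-led values, 266 ± 66.4 CPM for Neurod6 and 285 ± 97.2 CPM for Bhlhe22. Within each library Bhlhe22 was lower in the Scx-led cluster, though by little in En1/2 CKO 2 (263 CPM).

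The earlier genes were lower in the Igfbp5-led interneuron-like cluster than in the Scx-led one. Neurog1 was at 69.0 ± 12.5 CPM in the Scx-led and 18.3 ± 13.1 CPM in the Igfbp5-led cluster, with no overlap of libraries. Nhlh1 was at 152 ± 50.3 and 59.4 ± 18.3 CPM in that order, also with no overlap. Neurog2 (126 ± 27.7 and 91.3 ± 21.7 CPM) and Nhlh2 (1047 ± 417 and 583 ± 231 CPM) overlapped between the same clusters. Within each library Nhlh2 was higher in the Scx-led cluster. Neurog2 was not in control 2, at 85.2 CPM in the Scx-led and 109 CPM in the Igfbp5-led cluster. In the Ptf1a intermediate progenitor-like cluster the late genes were low, with Neurod6 at 16.6 to 61.6 CPM and Bhlhe22 at 15.1 to 57.4 CPM.

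**Figure D1:**
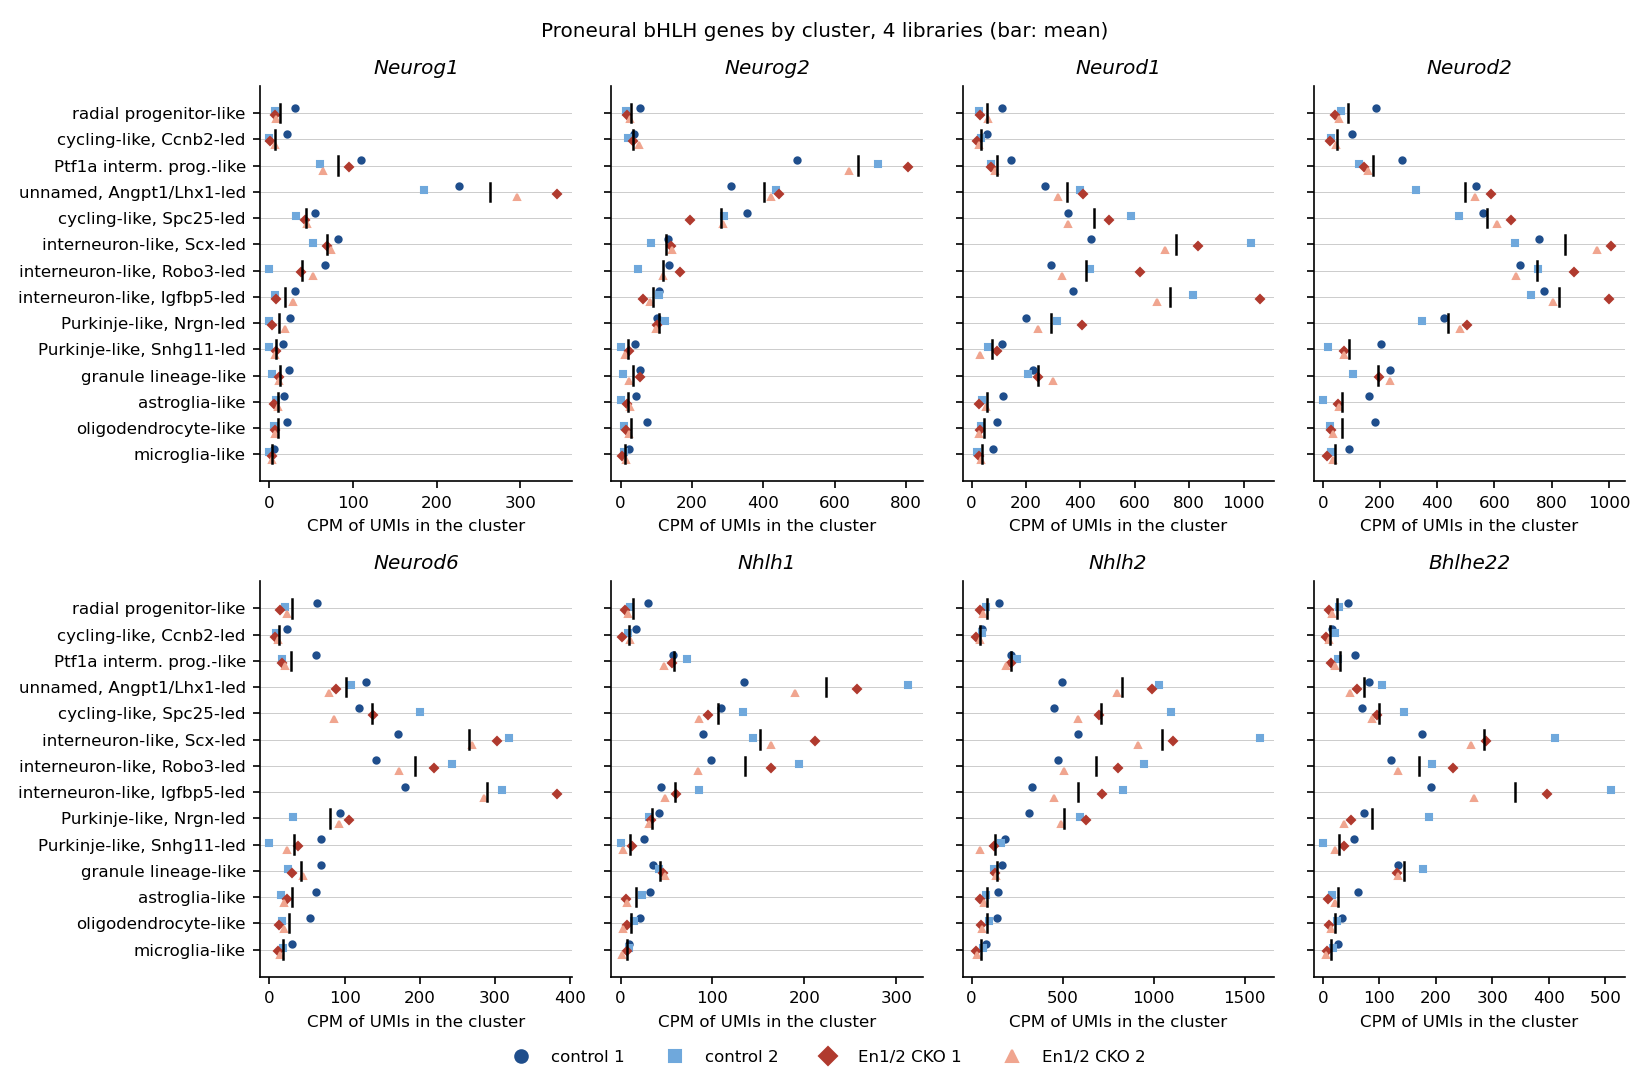
Level of each bHLH gene (horizontal axis, CPM) in 14 clusters (rows), with 1 point per library and a bar at the mean of 4. Neurog2 peaks in the Ptf1a intermediate progenitor-like row (495 to 807 CPM), Neurog1 in the unnamed Angpt1/Lhx1-led row (185 to 344 CPM), and Neurod2 in the interneuron-like rows (671 to 1006 CPM in the Scx-led cluster).

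With each cell thinned to 1000 UMIs and shallower cells left out (2598, 158, 1148 and 3066 cells of controls 1 and 2 and mutants 1 and 2), the 2 neurogenins kept the same leading cluster, by mean share of cells with a UMI, among the 7 clusters so measured. Neurog2 was detected in 31.7% of 328, 40.5% of 79, 44.1% of 358 and 39.0% of 223 intermediate progenitor-like cells in that order of libraries, against 31.2%, 54.5%, 56.4% and 44.2% unthinned. Neurog1 was detected in 17.7%, 18.3%, 26.4% and 22.4% of Angpt1/Lhx1-led cells, and in 18.9%, 23.1%, 38.1% and 27.4% unthinned. In microglia-like cells, which should lack both genes, thinned shares were between 0% and 1.64% for Neurog2 and between 0% and 0.741% for Neurog1. Median depths were 1042 to 3488.5 UMIs in intermediate progenitor-like cells and 3443.5 to 5603.5 UMIs in microglia-like cells. The neurogenin shares thus stood above the microglia-like background in all 4 libraries.

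Cells that carried each gene were then profiled by stage genes that the selection did not use. Carriers were cells with at least 2 UMIs of the gene, between 438 (Neurog1) and 3598 (Neurod2) cells, and their UMIs were summed per library. The sum of 8 radial progenitor genes was 3877 ± 198 CPM in Neurog2 carriers, 3003 ± 488 CPM in Neurog1 carriers and, as means of 4 libraries, 1786 to 2604 CPM in the rest. Libraries of Neurog1 carriers overlapped those of Neurod1, Neurod2, Nhlh1 and Nhlh2 carriers in that sum, and lay above those of Neurod6 and Bhlhe22 carriers. The sum of 10 neuron genes ran the other way, at 5423 ± 983 CPM for Neurog2, 6674 ± 1259 CPM for Neurog1 and, as means, 7429 to 8598 CPM for the rest. Neurod6 carriers had the lowest mean of radial genes and the highest of neuron genes. Carriers of different genes share cells and libraries, so the profiles are a description with no test.

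**Figure D2:**
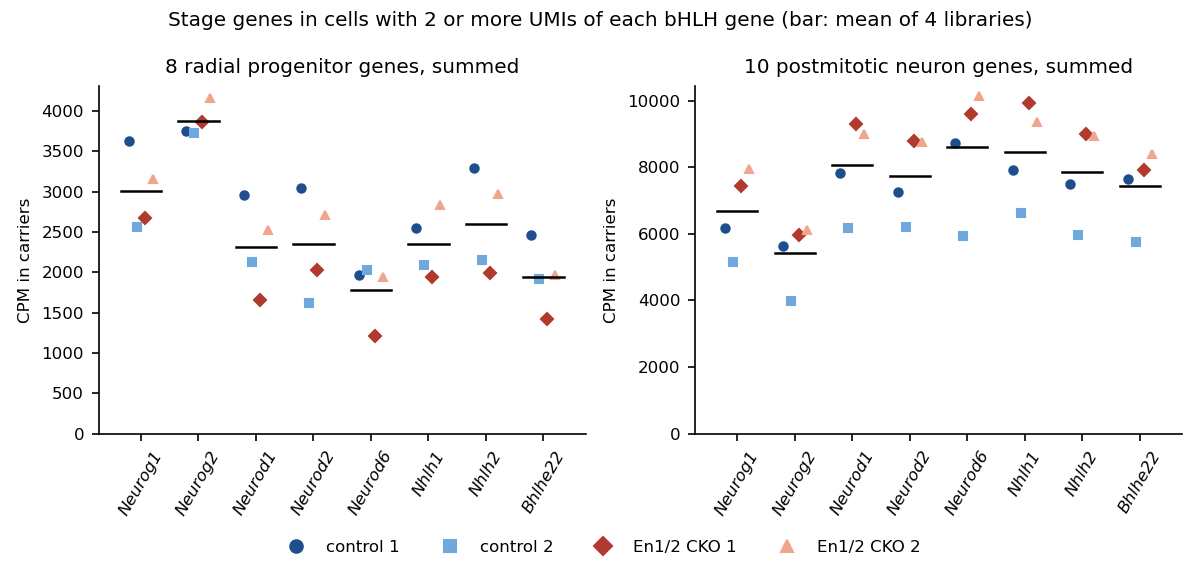
The summed radial genes and the summed neuron genes (vertical axes, CPM from 0) in carriers of each bHLH gene, with 1 point per library and a bar at the mean of 4. The radial sum is highest (mean 3877 CPM) and the neuron sum lowest (mean 5423 CPM) for Neurog2.

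The 2 cycling-like clusters differed in the cascade. Both had all 10 cycling markers raised, with summed cycling lists of 5507 ± 482 and 5021 ± 193 CPM. The one led by Nusap1 and Ccnb2 had a radial sum of 18677 ± 2739 CPM and Neurog2 at 37.6, 21.1, 33.6 and 51.3 CPM in controls 1 and 2 and mutants 1 and 2. The one led by Spc25 and Rrm2 had a radial sum of 2355 ± 627 CPM and Neurog2 at 354, 290, 193 and 288 CPM. Neurod1 (450 ± 115 against 34.6 ± 16.8 CPM), Neurod2 (575 ± 76.8 against 51.0 ± 35.7 CPM) and Nhlh2 (708 ± 276 CPM, with the Ccnb2-led libraries between 22.0 and 58.1 CPM) were also higher in the Spc25-led cluster, with no overlap of libraries. That cluster had Pax2, the interneuron lineage marker, at 319 to 548 CPM and Hes5, a Notch target of radial cells, at 7.17 to 53.6 CPM. The Ccnb2-led cluster had Pax2 at 9.92 to 44.4 CPM and Hes5 at 266 to 718 CPM. The Spc25-led cluster had 78, 83, 68 and 115 cells, and the part of any doublets left after removal was not tested.

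Purkinje-like cells formed 2 clusters, one led by Nrgn and Islr2 and one led by Snhg11, with 9 of 10 Purkinje markers raised in the latter and 5 in the former. Skor2, a defining Purkinje marker, was near 0 in both, at 13 or fewer UMIs per library. In control 1 and both mutants, the 7 bHLH genes other than Neurog1 were higher in the Nrgn-led than in the Snhg11-led cluster. For Bhlhe22 these differences were small, at 72.9, 49.8 and 37.2 against 55.9, 37.5 and 21.5 CPM in control 1 and mutants 1 and 2. Whether they exceeded counting error was not tested. In control 2 the same held for Neurog2, Neurod1, Neurod2, Nhlh2 and Bhlhe22, while Neurod6 and Nhlh1 had 1 UMI each in the Nrgn-led cluster (31.4 CPM) and 0 in the Snhg11-led one, which allows up to 59.7 CPM, so that no direction can be read for them. In the order controls 1 and 2, mutants 1 and 2, Neurod2 stood at 424, 346, 505 and 480 CPM in the Nrgn-led cluster and at 204, 19.9, 75.0 and 75.3 CPM in the Snhg11-led one. Nhlh2 was at 317, 597, 628 and 490 CPM in the former and at 184, 159, 125 and 45.2 CPM in the latter. Neurog2 was at 103, 126, 103 and 99.2 CPM in the former and at 41.5, 0, 24.99 and 12.9 CPM in the latter, where the 0 of control 2 has that same upper limit, at 3 counts. Control 2 contributed only 14 and 18 cells to these clusters. The summed neuron list was 10010 ± 1727 CPM in the Nrgn-led and 12288 ± 2365 CPM in the Snhg11-led cluster. Neurog1 was at 24.3 CPM or less in every library of both.

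**Figure D3:**
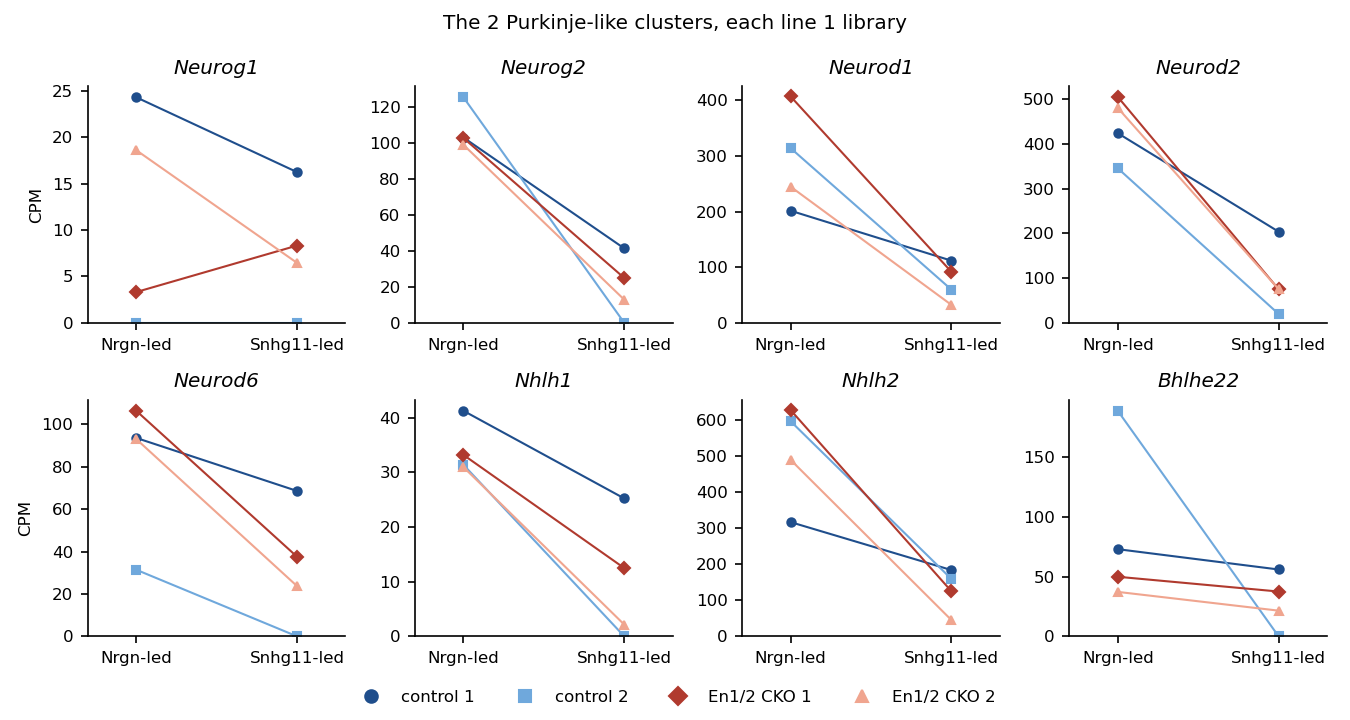
Level of each bHLH gene (vertical axis, CPM from 0) in the Nrgn-led and the Snhg11-led Purkinje-like cluster, each line being 1 library. The lines of control 1 and both mutants fall for the 7 genes other than Neurog1, those of control 2 for Neurod6 and Nhlh1 join 1 UMI to 0 and show no direction, and Neurod2 runs from 346 to 505 CPM on the left and 19.9 to 204 CPM on the right.

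Granule lineage-like cells (Atoh1 and Barhl1 raised) carried Neurod1 at 227, 208, 244 and 298 CPM and Bhlhe22 at 133, 178, 131 and 133 CPM in controls 1 and 2 and mutants 1 and 2. Neurod1 is a known factor of granule cell differentiation. TdTom, the sorted reporter, was at 395, 577, 457 and 626 CPM in these cells, against 456, 672, 499 and 605 CPM in all cells. Microglia-like cells had TdTom at 452, 1193, 550 and 893 CPM, so its level does not set labelled cells apart. In microglia-like cells Neurod1 and Bhlhe22 were at 18.6 to 79.2 CPM and 5.29 to 26.4 CPM, below every granule lineage-like value. The 8 genes summed gave 343, 167, 94.1 and 139 CPM in microglia-like cells, 637, 180, 186 and 264 CPM in astroglia-like cells and 626, 223, 164 and 184 CPM in oligodendrocyte lineage-like cells. Control 1 was highest in all 3, and whether these UMIs came from free RNA was not tested.

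Over the 13 clusters that had 20 or more cells per library, the Pearson correlation of log2(CPM + 10) was taken between the genes. Neurog1 and Neurog2 had r = 0.89, the highest value of Neurog2 with any member, while Neurod1, Neurod2 and Neurod6 were correlated at 0.96 to 0.98. Nhlh1 stood between, at 0.90 with Neurog1 and 0.97 with Nhlh2. Bhlhe22 was at 0.41 with Neurog2 and 0.96 with Neurod1. These are correlations over clusters that share libraries and depth, with no test. Of 9805 other genes, those most like Neurog1 were Lhx1os, Lhx1 and Prmt8 (r = 0.98, 0.96 and 0.95), and those most like Neurog2 were Prdm13, a Ptf1a-lineage regulator, Tmeff2 and Prmt8 (0.97, 0.94 and 0.94). For Nhlh1 they were Tcf15, Elavl3 and Cxxc5, and for Nhlh2 Scrt2, Lhx5 and Smim18 (r of 0.975 to 0.996). For Neurod1 they were Crmp1, Cplx1 and Dcx, for Neurod2 Smim18, Scrt1 and Crmp1, for Neurod6 Ina, Rab3a and Gm14204, and for Bhlhe22 Uncx, Cplx1 and Fam57b, with r of 0.975 to 0.994.

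Co-detection within a cluster was measured in the thinned cells. In the Ptf1a intermediate progenitor-like cluster, 381 cells had a Neurog2 UMI, and Neurog1 was detected in 8.97% of them against 3.94% of the rest, higher in 4 of 4 libraries. Neurod1 was detected in 11.2% against 7.34%, also in 4 of 4 libraries, and Nhlh1 in 5.25% against 5.07%, in 2 of 4. In the Angpt1/Lhx1-led cluster, Neurog1 was detected in 23.3% of 409 Neurog2-positive cells and 20.3% of the rest, higher in 3 of 4 libraries. The Scx-led cluster differed. Neurog2 was detected there in 7.74% of 547 Neurod1-positive cells and 11.6% of the rest, higher in 0 of 4 libraries. In the 2 libraries with 20 or more Neurog1-positive cells there, Neurod1 was detected in 17.1% of them against 49.0% of the rest. Neurog1 was in 9.15% of Neurog2-positive cells there against 4.99%, higher in 2 of 2 libraries. These shares are means over libraries and carry no test.

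The design asks whether loss of En1 and En2 changes the cascade, and the first measure was the level of each gene in the cluster where its CPM, with all libraries pooled, was highest. For Neurod6 and Bhlhe22 that was the Scx-led cluster, although their means over libraries were highest in the Igfbp5-led one. Neurog2 in the intermediate progenitor-like cluster gave a log2 fold change, mutant over control, of 0.23 ± 0.34 (SE), and its groups overlapped (495 and 721 against 807 and 639 CPM). Neurog1 in the Angpt1/Lhx1-led cluster was higher in both mutants than in both controls (227 and 185 against 344 and 297 CPM), with a log2 fold change of 0.61 ± 0.25, an unadjusted p of 0.040 and an adjusted p of 0.71 in edgeR's quasi-likelihood test with Benjamini-Hochberg adjustment. Nhlh1 there was at 0.08 ± 0.40. In the Scx-led interneuron-like cluster, Neurod2 was at 0.45 ± 0.24, Neurod6 at 0.23 ± 0.33, Neurod1 at 0.06 ± 0.40, Bhlhe22 at -0.09 ± 0.39 and Nhlh2 at -0.12 ± 0.44. Higher in both mutants were Neurod2, Neurog2 and Nhlh1 in the Scx-led cluster (20.3% of all genes there), and lower were Nhlh1 and Bhlhe22 in the intermediate progenitor-like cluster (16.3%). For Nhlh1 in the latter, the nearest libraries of the groups were at 57.4 and 56.2 CPM. In the Angpt1/Lhx1-led cluster Neurog1 alone was higher (19.4%), and Neurod6 and Bhlhe22 were lower (16.9%). In the intermediate progenitor-like cluster no member was higher in both mutants, where 19.2% of all genes were. None passed an adjusted p of 0.05 in edgeR's quasi-likelihood test over all genes, which called 0% of 9511, 8538 and 8807 genes tested in the 3 clusters. DESeq2 called none of the 8 either. At an unadjusted p under 0.05, 3 of the 8 stood in the Angpt1/Lhx1-led cluster, 2 in the intermediate progenitor-like and 0 in the Scx-led one, where 6.97%, 6.83% and 6.68% of all genes stood.

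In interneuron-like cells as a class, none of the 8 passed and the test called 0% of 11015 genes, with no member at an unadjusted p under 0.05, as 4.05% of all genes were, and none called by DESeq2. In all, 6 of the 8 were higher and 2 lower in the mutants, with a median log2 fold change of 0.23 against -0.04 over all genes. Neurog1 (50.01 and 31.5 against 51.0 and 59.6 CPM), Neurog2 (123 and 90.3 against 127 and 126 CPM) and Neurod2 (735 and 697 against 989 and 869 CPM) were higher in both mutants than in both controls. For Neurog1 the nearest libraries were at 50.01 and 51.0 CPM, and with the 8 genes allowed among the variable genes of the clustering Neurog1 (-0.30) and Neurog2 (-0.12, log2 fold change) turned to lower. Both mutants exceeded both controls for 18.7% of all genes tested, and the count of 3 among 8 members is read against that share. The other 5 genes overlapped between genotypes. Nhlh2 stood at 415 CPM in control 1 and 1267 CPM in control 2, against 980 and 732 CPM in the mutants, and Bhlhe22 at 159 and 426 against 307 and 239 CPM. In both genes the controls were the lowest and the highest library.

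The class was made up differently in the 2 controls. Of interneuron-like cells in control 1, 46.9% lay in the Robo3-led cluster and 5.32% in the Scx-led one, against 12.2% and 50.2% in control 2, 24.9% and 40.1% in En1/2 CKO 1 and 35.8% and 31.4% in En1/2 CKO 2. Median depth in the Scx-led cluster was 1195 and 2443 UMIs in the controls and 4293 and 3988.5 UMIs in the mutants. Their part in the results was not tested. With 1 control the spread rests on the 2 mutant libraries. Against control 1 alone, Neurod1, Neurod6, Nhlh1, Nhlh2 and Bhlhe22 were higher in the mutants. Against control 2 alone Neurod1, Neurod6, Nhlh2 and Bhlhe22 were lower. Nhlh2 was at 1.06 in the first and -0.65 in the second, and Bhlhe22 at 0.80 and -0.73 (log2). Neurod1 was at 1.14 and -0.36 and Neurod6 at 0.82 and -0.21. The direction for Neurod1, Neurod6, Nhlh2 and Bhlhe22 thus turned with the control used.

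**Figure D4:**
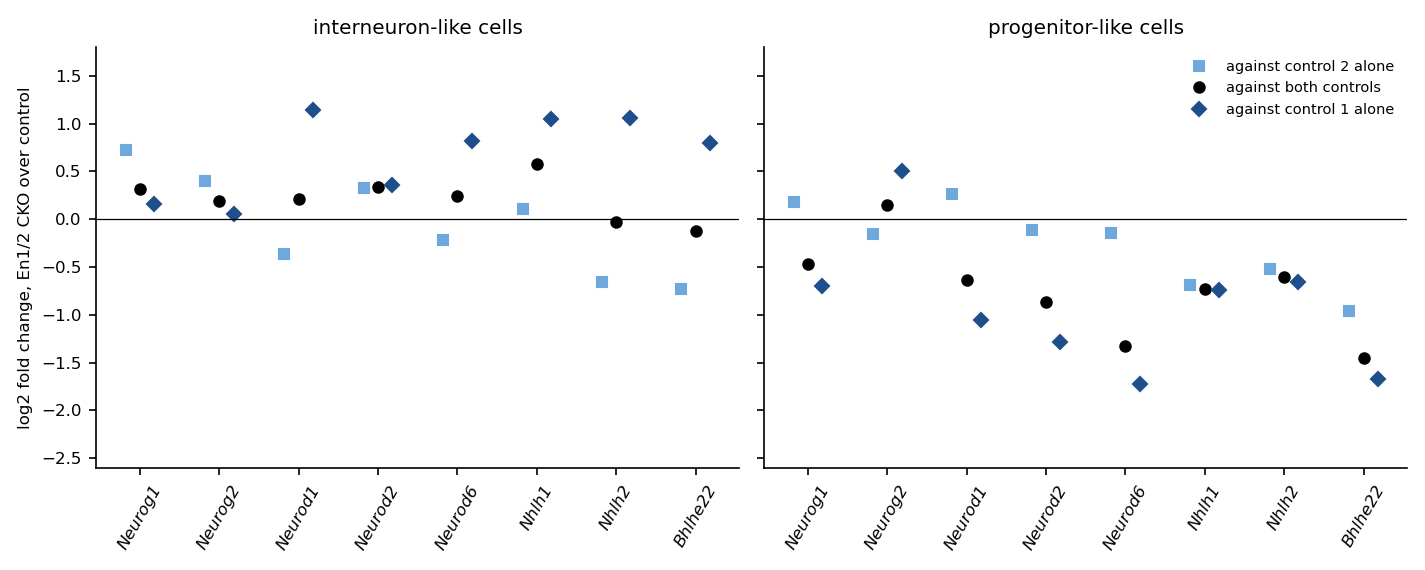
Log2 fold change, En1/2 CKO over control, of each bHLH gene in interneuron-like and progenitor-like cells, against both controls (circles), control 1 alone (diamonds) and control 2 alone (squares). In interneuron-like cells Nhlh2 runs from -0.65 to 1.06, and in progenitor-like cells Bhlhe22 stays below 0 in all 3.

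In progenitor-like cells (the radial progenitor-like and the Ptf1a intermediate progenitor-like clusters together), 7 of the 8 genes were lower in the mutants and Neurog2 was at 0.15 ± 0.32. The median log2 fold change was -0.69 against -0.03 over all genes. None passed, where the test called 0% of 11439 genes and DESeq2 called no member. Of the members, 4 (Bhlhe22, Neurod6, Nhlh1 and Nhlh2) had an unadjusted p under 0.05, as had 5.52% of all genes. Bhlhe22 was at 48.9 and 28.0 against 12.4 and 18.3 CPM (log2 fold change -1.45 ± 0.35, edgeR adjusted p = 0.84), Nhlh1 at 38.4 and 34.5 against 24.0 and 20.5 CPM and Nhlh2 at 171 and 144 against 109 and 101 CPM. These 3 were lower in both mutants than in both controls, as were 15.9% of all genes tested, and none was higher in both, as 19.5% were. Without a low-count filter Bhlhe22 (-1.41, adjusted p = 0.012) and Neurod6 (-1.28, adjusted p = 0.029) passed in edgeR, where 65 of all genes passed. With 1 library left out, Bhlhe22 ranged from -1.69 to -0.96, while Neurog1, Neurog2 and Neurod1 changed sign. In microglia-like cells, which should lack these genes, their sum was also higher in both controls (343 and 167 against 94.1 and 139 CPM), and Nhlh2 was at 79.2 and 65.0 against 21.7 and 31.7 CPM there. Neurod6 was at 29.3 and 18.6 against 10.9 and 14.5 CPM, from 3 to 11 UMIs per library, and Nhlh1 had 3 UMIs or fewer in each library, too few for a direction. In oligodendrocyte lineage-like cells Nhlh2 was at 141 and 93.2 against 51.0 and 54.5 CPM. The part of such UMIs in the progenitor-like values was not tested.

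Bhlhe22 was lower in both mutants than in both controls in 5 of the 7 cell sets tested. The sets overlap in cells and share the same 4 libraries, so they are not separate observations. In Purkinje-like cells it was at 66.0 and 73.1 against 46.3 and 27.9 CPM, with a log2 fold change of -0.85 ± 0.37 and an edgeR adjusted p of 1.00, and both mutants were below both controls, as for 13% of all genes. In the Angpt1/Lhx1-led cluster it was at 82.0 and 104 against 61.2 and 47.9 CPM (-0.70 ± 0.27) and in the intermediate progenitor-like cluster at 57.4 and 27.7 against 15.1 and 21.2 CPM (-1.47 ± 0.40). In its main sites the groups overlapped, with 191 and 509 against 396 and 267 CPM in the Igfbp5-led interneuron-like cluster and 133 and 178 against 131 and 133 CPM in granule lineage-like cells. In microglia-like cells Bhlhe22 was at 26.4 and 18.6 against 7.24 and 5.29 CPM, from 9, 4, 2 and 4 UMIs. The part of such UMIs in the lower values was not tested.

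In Purkinje-like cells 7 of the 8 genes could be tested, since Neurog1 was filtered out at 0 to 21.0 CPM. None passed in edgeR or DESeq2, where edgeR called 0.0228% of 8768 genes, and 1 (Bhlhe22) had an unadjusted p under 0.05, as had 3.18% of all genes. In all, 3 were higher and 4 lower, with log2 fold changes from -0.85 to 0.42. Nhlh2 was at 263 and 329 against 484 and 227 CPM and Neurod2 at 335 and 146 against 382 and 241 CPM, with overlapping groups in both. Control 2 had 32 cells in this class. In all cells together none of the 8 passed, edgeR called 0% of 14742 genes, and log2 fold changes ran from -0.55 (Bhlhe22) to 0.17 (Neurog1), with none at an unadjusted p under 0.05 (4.61% of all genes) and none called by DESeq2. No member was higher in both mutants, where 22.5% of all genes were. Bhlhe22 (105 and 130 against 91.4 and 76.2 CPM) was lower in both mutants, as were 12% of all genes. Neurod6 was at 113 and 91.03 against 90.96 and 80.9 CPM, where the nearest libraries of the 2 groups differed by less than counting error.

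**Figure D5:**
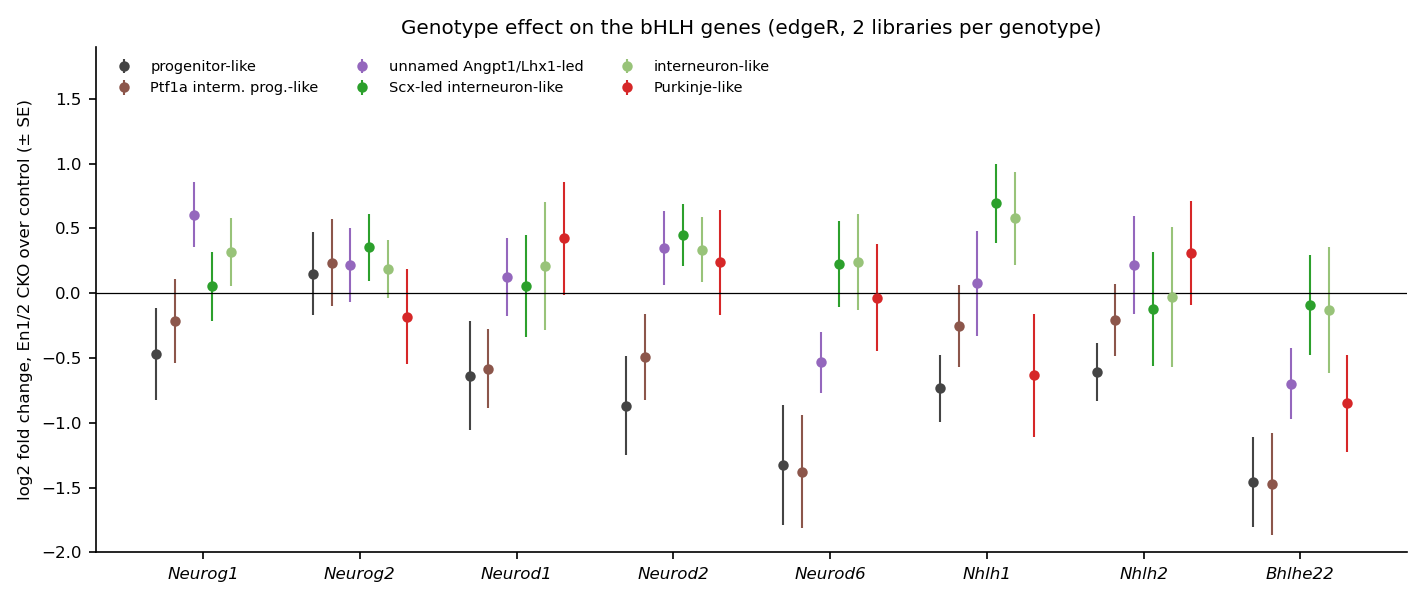
Log2 fold change, En1/2 CKO over control (points, with the SE as bars), of each bHLH gene in 6 cell sets, from edgeR on sums of 2 libraries per genotype. Progenitor-like values lie below 0 for 7 of the 8 genes and interneuron-like values above 0 for 6 of the 8, and none passed the adjusted threshold.

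Whether the genotype effect differed between classes was tested in 1 edgeR fit over both classes, with a block for each library and a genotype-by-class term. Between interneuron-like and progenitor-like cells, 1 of the 8 genes passed, Nhlh1, where 0.0655% of 12212 genes passed. Nhlh1 was at 71.8 and 128 against 170 and 123 CPM in interneuron-like cells and at 38.4 and 34.5 against 24.0 and 20.5 CPM in progenitor-like cells, so that the groups overlapped in the former. The difference of its log2 fold changes was 1.66 ± 0.27 with an adjusted p of 0.032 in edgeR. Of the 8 genes, 7 had an unadjusted p under 0.05 in this test, as had 8.18% of all genes. The difference for Nhlh1 kept its sign in all 11 alternatives run and missed the threshold in 6 of them. Without control 1 it was 0.78 with an edgeR adjusted p of 0.80, and without En1/2 CKO 1 it was 1.41 with an adjusted p of 0.27. Without control 2, 7 of the 8 genes passed. With the Ptf1a intermediate progenitor-like cluster alone on the progenitor side it was 1.05 with an adjusted p of 0.21. Nhlh1 (chr1:172052292-172057573) lies on the chromosome of En1 (chr1:120602418-120607992), whose floxed allele only the mutants carried, and effects of sequence linked to that allele cannot be told apart from those of the mutation. Between interneuron-like and Purkinje-like cells none of the 8 passed in edgeR, which called 0.0988% of 10117 genes, and 4 had an unadjusted p under 0.05, against 6.18% of all genes. That outcome depended on which library was left out. With all 4 libraries, the smallest edgeR adjusted p was 0.11, for Bhlhe22.

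Partners, opponents and targets of the cascade were read in the same tests, and none of the 4 lists had a member past the threshold in any of the 7 cell sets. The 3 E proteins, the dimer partners, were all tested, and in progenitor-like cells 2 were higher and 1 lower (median 0.04). Tcf4 was there at 733 and 1576 against 1062 and 905 CPM. Of 10 bHLH repressors and Id inhibitors, 5 of the 8 tested were higher in progenitor-like cells, with Id1 at 76.8 and 144 against 240 and 205 CPM and Hes1 at 69.4 and 77.6 against 124 and 109 CPM. In the Angpt1/Lhx1-led cluster all 7 tested were lower (median -0.45 against -0.04 over all genes), with Id3 at 151 and 47.4 against 49.8 and 95.8 CPM. Among the other neural bHLH genes, Ptf1a in that cluster was at 30.6 and 28.5 against 66.9 and 57.3 CPM (log2 fold change 1.05 ± 0.28, adjusted p = 0.68). Atoh1 there was at 11.9 and 14.2 against 1.42 and 1.45 CPM, from 16, 3, 2 and 2 UMIs. With 3 UMIs or fewer in control 2 and both mutants, the size of this difference is not read. For the interneuron-like class Atoh1 was at 11.2 and 8.40 against 4.86 and 1.66 CPM (log2 fold change -1.67). The control 2 value rests on 4 UMIs, all from the Scx-led cluster. The progenitor-like class had 13.96 and 4.31 against 3.61 and 1.46 CPM (-2.09). There control 2 had 1 UMI in the radial and 1 in the intermediate progenitor-like cluster, close to En1/2 CKO 1. The sizes of these differences are not read either. Whether the Atoh1 UMIs came from free RNA was not tested.

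Of 16 downstream genes, those of smallest p there were Btg2, a gene of cell cycle exit, and Rnd2, a small GTPase of migrating neurons. Btg2 was at 207 and 104 against 413 and 436 CPM (log2 fold change 1.36 ± 0.31, adjusted p = 0.68) and Rnd2 at 130 and 171 against 283 and 263 CPM (0.89 ± 0.27). The list as a whole had 8 higher and 8 lower, with a median of 0.04. In the Scx-led interneuron-like cluster Btg2 was at 105 and 40.8 against 197 and 199 CPM and Rnd2 at 102 and 115 against 187 and 212 CPM. Both mutants exceeded both controls for both genes in both clusters, as for 19.4% and 20.3% of all genes tested there. In progenitor-like cells Btg2 was at 142 and 69.0 against 245 and 234 CPM, and in all cells at 95.6 and 48.5 against 180 and 179 CPM. Its higher level was thus not particular to these clusters. In those wider sets both mutants exceeded both controls for 19.5% and 22.5% of all genes. Most of the list went the other way there. In progenitor-like cells 6 were higher and 10 lower (median -0.21), and in all cells 4 and 12 (median -0.24). In progenitor-like cells Dll3 was at 89.0 and 62.5 against 39.7 and 51.3 CPM. In all cells Dll1 was at 72.2 and 35.2 against 35.8 and 31.8 CPM. Btg2 also lies on chromosome 1, where the same limit holds.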

How the data were processed

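Single-cell libraries of sorted tdTomato-positive cells were made with 10x Genomics 3' v3.1 chemistry, per the labels' protocols. The deposited matrices hold raw UMI counts, not normalised. The authors produced these counts in Cell Ranger 6.1.0 (per the file headers), with mm10 plus a TdTom sequence as the reference (per the labels). The remaining deposited files list barcodes and genes. Whether intron reads were counted is not given in the sources used here.

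Barcodes needed 500 or more genes and no more than 10% mitochondrial UMIs. The highest Scrublet scores were removed as doublets at 0.8% per 1000 barcodes, 3.65% to 9.22% of cells per library. With scanpy 1.11.5, 2000 variable genes without the 8 bHLH genes were reduced to 30 principal components, joined by 15 neighbours and split by the Leiden method (resolution 1). A cluster was named when at least 3 markers of a list were raised 1.5-fold, any of its first 3 markers among them. No other list could have more of its markers among the leading genes of the cluster. The Ptf1a progenitor name needed more such markers than each neuron list, and the erythroid name needed Alas2 raised. Clusters of low depth with no marker of the list among the leading genes stayed unnamed. The naming rule was settled after clusters had been viewed. Intervals of shares are exact Clopper-Pearson at 95%, a count of 0 allows 3 counts, and both cover counting error only.

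UMIs were summed per library and tested with edgeR 4.0.16 (2-sided quasi-likelihood test after TMM and filterByExpr, p adjusted by Benjamini-Hochberg, threshold 0.05) under R 4.3.3, with DESeq2 1.42.0, other normalisation, filters, clusterings, a replicate block and left-out libraries as alternatives. The fits were tested on simulated counts, where 4-fold changes were recovered in 73% (all cells) to 92% (interneuron-like cells) of genes and 2-fold changes in 8% (Purkinje-like cells) to 25% (interneuron-like cells). The deposited libraries held 5305154 to 21021428 UMIs, of which 2867297 to 15993639 were kept, and the precision of the tests is limited by these and by having 2 libraries per genotype. Same-numbered libraries of the 2 genotypes had deviations correlated at -0.28 to 0.04. With 2 libraries per genotype, crossing the numbers only turns the sign of this correlation. It therefore cannot show whether libraries were paired, and the numbers were not treated as pairs.

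The genes named were the 8 members, the 3 genes most like each across clusters, and in each pathway list the 2 of smallest p. Members and lists were chosen with earlier results of these data known. Promoters are RefSeq sequences. Results for 1 further gene are not reported here.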

Additional observations from a re-analysis of the deposited data

Results flagged for a closer look

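Nhlh1 stood out because its genotype effect differed between cell classes. In the tested case, its log2 fold change in interneuron-like cells exceeded that in progenitor-like cells by 1.66. In 2 further comparisons, which were not tested, both mutant libraries lay below both controls in one set and above both in the other. As log2 ratios of mean CPM, Nhlh1 was at -0.71 in progenitor-like cells and 0.68 in the Scx-led interneuron-like cluster. It was at -0.33 in the Ptf1a intermediate progenitor-like cluster, against the same 0.68. Its libraries in that progenitor-like cluster were at 57.4 and 72.1 CPM in the controls and 56.2 and 46.9 CPM in the mutants. The nearest, at 57.4 and 56.2 CPM, lay close together. The edgeR log2 fold change there was -0.25 ± 0.32 (unadjusted p = 0.45), so no direction is read. Nhlh1 shares its chromosome with En1, and effects of linked sequence cannot be told apart from those of the mutation.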

How the results depend on the processing

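Of 365 recomputed log2 fold changes of the 8 genes under alternatives other than a left-out library, 327 kept their direction and side of the threshold and 32 changed sign. With a stricter cell filter, the values that changed sign were Neurod2 (0.026) and Nhlh1 (0.21) in all cells, Neurog2 (0.044) and Neurod6 (0.15) in Purkinje-like cells and Nhlh2 (0.073) in interneuron-like cells. With the replicate block they were, in Purkinje-like cells, Neurog2 (0.029) and Neurod6 (0.39), in interneuron-like cells Nhlh2 (0.19) and Bhlhe22 (0.030), and in the Scx-led cluster Nhlh2 (0.046) and Bhlhe22 (0.014). The block called 0 of the 8 genes in each of the 7 cell sets. With the mutant numbers crossed in the block, 0 of the 8 genes were called in each set, and the same changes of sign came to 0.092 (Neurod6), 0.19 (Nhlh2) and 0.027 (Bhlhe22), and 0.046 and 0.0096 in the Scx-led cluster. With doublets kept, Neurog2 (0.18) and Neurod6 (0.00081) in Purkinje-like cells changed sign. With cells thinned, Neurog2 in Purkinje-like cells (0.16), Bhlhe22 in interneuron-like cells (0.056), Nhlh1 in the Angpt1/Lhx1-led cluster (-0.041), and Neurod1 (-0.080) and Bhlhe22 (0.28) in the Scx-led cluster did. With the 8 genes allowed among the variable genes, Neurod6 in Purkinje-like cells (0.12) and Neurog1 (-0.30), Neurog2 (-0.12) and Bhlhe22 (0.0023) in interneuron-like cells did. With Leiden resolution 2, Neurod6 in Purkinje-like cells (0.030) and Nhlh2 in interneuron-like cells (0.036) did, with DESeq2 the same genes (0.27 and 0.0039), and without a low-count filter Nhlh2 in interneuron-like cells (0.027). The cause of these changes was not tested.

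Members called in progenitor-like cells rose from 0 to 2 without a low-count filter, where all genes called rose from 0 to 65. For the difference between interneuron-like and progenitor-like cells, 1 member was called in the reported fit, 4 with RLE size factors, 5 at Leiden resolution 2, 6 with the stricter filter, 3 with thinned cells, and 0 with doublets kept, with the 8 genes among the variable genes, or with the intermediate progenitor-like cluster alone. Against Purkinje-like cells it was 0 as reported, 2 with RLE size factors, 2 at resolution 2 and 1 with doublets kept. These alternatives to the class difference, and the crossed block, were chosen after seeing the data. Shares of all genes called under the alternatives to the class difference are not given, so their counts are no result about the members.

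With 1 library left out, the affected genotype has no spread of its own, so only ranges of log2 fold changes are given. The number of members called varied with the library left out in every set except Purkinje-like cells. In all cells, ranges that changed sign were -0.24 to 0.82 (Neurog1), -0.061 to 0.20 (Neurog2), -0.31 to 0.030 (Neurod1), -0.58 to 0.42 (Neurod2), -0.30 to 0.071 (Nhlh1) and -0.54 to 0.078 (Nhlh2). In Purkinje-like cells they were -0.53 to 0.46 (Neurog2), -0.44 to 0.99 (Neurod1), -0.11 to 1.15 (Neurod2), -0.28 to 2.55 (Neurod6), -1.12 to 0.81 (Nhlh1) and -0.35 to 0.77 (Nhlh2). In interneuron-like cells they were -0.36 to 1.14 (Neurod1), -0.21 to 0.82 (Neurod6), -0.65 to 1.06 (Nhlh2) and -0.73 to 0.80 (Bhlhe22), and in progenitor-like cells -0.74 to 0.18 (Neurog1), -0.15 to 0.51 (Neurog2) and -1.06 to 0.26 (Neurod1). In the clusters they were -0.56 to 0.78 (Nhlh1, Angpt1/Lhx1-led), -0.067 to 0.61 (Neurog2, intermediate progenitor-like), and in the Scx-led one -0.44 to 0.86 (Neurod1), -0.18 to 0.79 (Neurod6), -0.68 to 0.83 (Nhlh2) and -0.61 to 0.70 (Bhlhe22). Whether same-numbered libraries were paired cannot be told from the correlation of their deviations, and the block fits above are given for that reason only.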
